A study of Chlamydomonas reinhardtii with 42 samples.

Results

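Transcripts of 4 nuclear genes for proteases of the chloroplast, FTSH1 (Cre12.g485800), FTSH2 (Cre17.g720050), DEG1A (Cre02.g088400) and DEG1C (Cre12.g498500), were followed in the green alga Chlamydomonas reinhardtii. They were picked out by symbol among the 780 genes named in the authors' rapamycin tables, then matched by locus to a table of 17114 genes in 17 libraries. The libraries came from strain DHC16 at 0, 12 and 48 h, with 3 libraries at each time, and from strain A31 at 0, 12 and 48 h, with 3, 3 and 2 libraries. Both strains received vitamin B12 and thiamine, and the 0 h libraries stand for the state before these vitamins. The labels describe the vitamins as the means of depleting ClpP1, the chloroplast-encoded catalytic subunit of the stromal Clp protease. Which strain loses ClpP1 is not in the labels. In published work DHC16 carries a construct that lets these vitamins switch off the chloroplast clpP1 gene, and A31 serves as the control strain. At 12 and 48 h there was no vitamin-free culture to compare with, so a change with time also holds growth and the hour of sampling. The growth notes name light, dim light and darkness without saying which culture had which. In another experiment of the series, A31 received rapamycin, an inhibitor of the TOR kinase, and was compared at 2 and 8 h with 0 h. Its records repeat the names of the A31 vitamin libraries of 0 h, so the labels do not show whether its 0 h samples were separate. For that experiment the authors' means and statistics were used.

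FtsH proteases are membrane-anchored, ATP-driven metalloproteases that pull proteins out of the thylakoid membrane and cut them up. In plants and algae they are best known for removing the damaged D1 subunit during repair of photosystem II. FTSH1 is the Chlamydomonas counterpart of Arabidopsis FtsH1 and FtsH5, and FTSH2 that of Arabidopsis FtsH2 and FtsH8. The complex is built from subunits of both types. Deg proteases are serine proteases that need no ATP and carry PDZ domains for binding substrates. DEG1A is annotated as most similar to Arabidopsis DegP1, on the lumen side of the thylakoid, and DEG1C as most similar to Arabidopsis DegP5. The annotation derives both Deg genes from recent duplications, so reads may be shared with close copies, and how such reads were counted is not given in the sources used here.

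The libraries held 7458423 to 13699705 reads, and the 4 genes had between 123 and 16185 reads in each. The values are normalized counts, that is, reads divided by 1 factor per library. They are not corrected for gene length, so a gene is compared with itself across libraries and not with another gene. The normalized totals ran from 11875128 to 16502090 in DHC16 at 0 h and from 6350337 to 10739093 elsewhere. At 48 h A31 had 2 unlike libraries. Against the A31 libraries of 0 and 12 h, the mean rank correlations of library 19 were 0.943 and 0.813, and those of library 22 were 0.775 and 0.919. Labels do not state that the libraries of a group came from separate cultures, so the p-values measure the spread between libraries, which may be technical.

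FTSH1 had its highest values in DHC16 at 48 h and its lowest in DHC16 at 0 h. In DHC16 it had 1682.5, 1360.5 and 1887 normalized counts at 0 h, 2207, 2405 and 2093 at 12 h, and 3292, 4393 and 3281 at 48 h. In A31 it had 2181, 2084 and 2267 at 0 h, 2427, 1908 and 2437 at 12 h, and 1733 and 3509 at 48 h. All 3 DHC16 libraries at 48 h lay above all 6 earlier DHC16 libraries. Of all tested genes, 32.9% had these 3 above all libraries of 0 h and 31.1% above all of 12 h. At 48 h A31 library 22 lay inside the DHC16 range and A31 library 19 below every A31 library of 0 h, so the strains overlapped. The group means were 1643 ± 265, 2235 ± 158 and 3656 ± 639 in DHC16, and 2177 ± 91.3 and 2257 ± 303 in A31 at 0 and 12 h (SD, n = 3 each).

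FTSH2, the partner subunit type, stayed within a narrower range. In DHC16 it had 2352, 2445 and 2773 normalized counts at 0 h, 2024, 2430.3 and 2202 at 12 h, and 3558, 4145 and 3514 at 48 h. In A31 it had 2508, 2257 and 2199 at 0 h, 1787, 1999 and 1909 at 12 h, and 1898 and 2881 at 48 h. The 3 libraries of DHC16 at 48 h exceeded each of the other 14 libraries, a pattern whose share among all tested genes was not counted. Means in DHC16 were 2524 ± 221, 2219 ± 204 and 3739 ± 353, and in A31 they were 2321 ± 164 and 1898 ± 106 at 0 and 12 h (SD, n = 3 each).

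DEG1A, the lumenal Deg protease, was level in every group but one. In DHC16 it had 269.5, 270.2 and 199.8 normalized counts at 0 h, 229, 248 and 281 at 12 h, and 537, 695 and 561 at 48 h. In A31 it had 285, 223 and 289 at 0 h, 256, 212 and 291 at 12 h, and 284 and 328 at 48 h. The highest of the 14 libraries outside DHC16 at 48 h was A31 library 22 with 328, below the lowest DHC16 library at 48 h with 537. How common such a separation is among all tested genes was not counted. Means in DHC16 were 246.5 ± 40.5, 252.5 ± 26.6 and 597.5 ± 85.2, and in A31 they were 265.7 ± 37.2 and 253.1 ± 39.8 at 0 and 12 h (SD, n = 3 each).

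DEG1C showed the widest range of the 4 genes. In DHC16 it had 1211, 237 and 388 normalized counts at 0 h, 222, 514 and 231 at 12 h, and 9317, 12638 and 10319 at 48 h. In A31 it had 244, 137 and 172 at 0 h, 153, 129 and 151 at 12 h, and 441 and 461 at 48 h. At 48 h its lowest DHC16 library stood at 9317, against a highest value of 1211 in the 14 other libraries. Here too the share of all tested genes with such a separation was not counted. Means in DHC16 were 612 ± 524, 322 ± 166 and 10758 ± 1703, and in A31 they were 184 ± 54.8 and 144 ± 13.8 at 0 and 12 h (SD, n = 3 each). The SD in DHC16 at 0 h was close to its mean because of library 1, which had 1211.

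**Figure D1:**
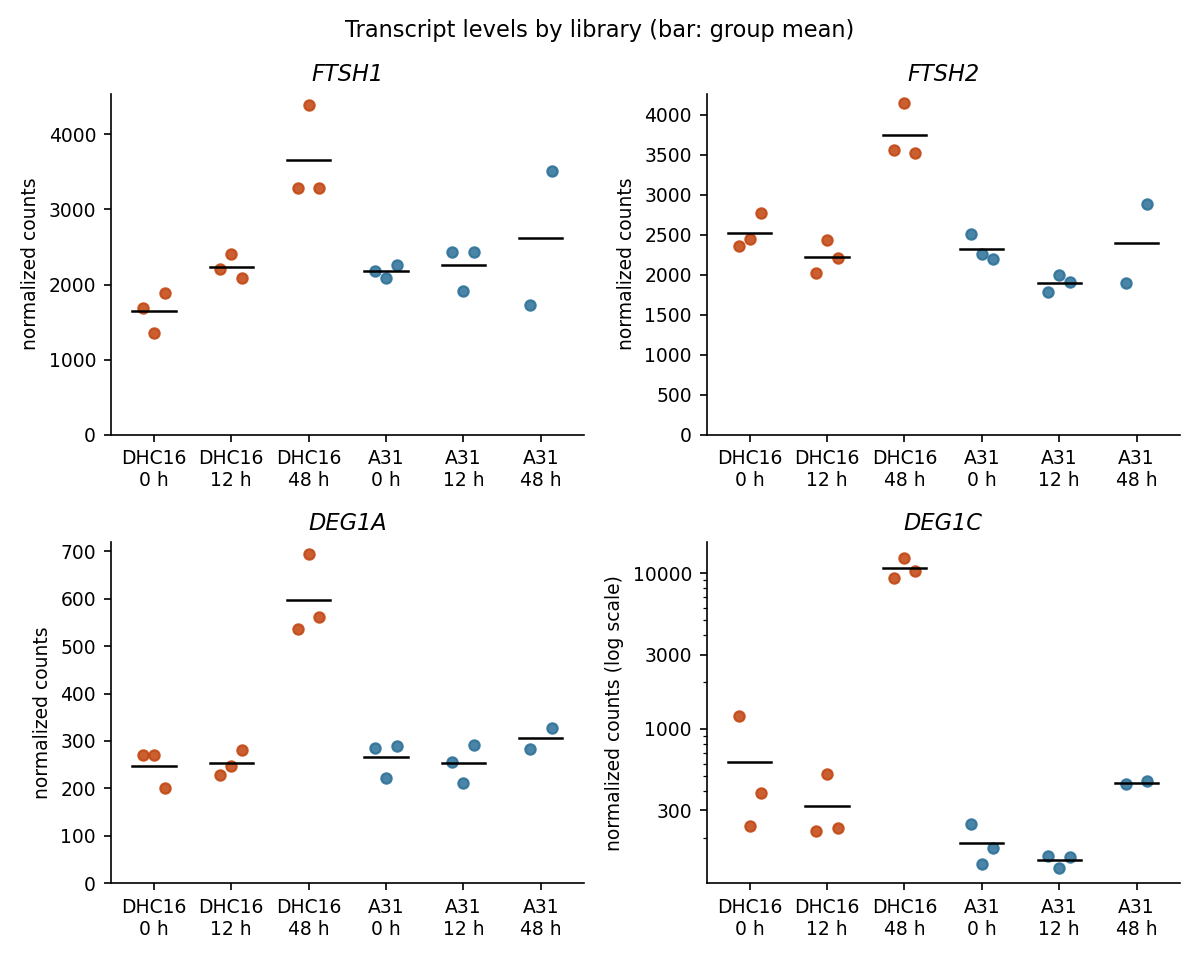
Normalized counts of the 4 genes in each of the 17 libraries, by strain and time. Each point is 1 library and each bar a group mean. The axis of DEG1C is logarithmic and the others start at 0. DHC16 at 48 h has the highest group mean in every panel, and for DEG1C its 3 points lie at 9317 to 12638, above all others.

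By group mean, DHC16 at 48 h came first of the 6 groups for each gene. For FTSH1 its range overlapped that of the next group, A31 at 48 h, and DHC16 at 0 h lay below its neighbour A31 at 0 h with no overlap. For FTSH2, DEG1A and DEG1C the top group did not overlap the next one, which was DHC16 at 0 h for FTSH2 and DEG1C and A31 at 48 h for DEG1A. At the low end FTSH2 in A31 at 12 h lay below DHC16 at 12 h with no overlap. All other neighbouring groups in these orders overlapped. Among all tested genes, DHC16 at 48 h lay above every DHC16 library of 0 h for 32.9% and above every A31 library of 48 h for 23%. DHC16 lay above every A31 library at 12 h for 17.1% and below every A31 library at 0 h for 16.4%. The share of genes with DHC16 at 48 h above all other libraries was not counted.

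All 4 genes rose in DHC16 at 48 h against 0 h, tested with limma on log2(normalized count + 1) with Benjamini-Hochberg adjustment over 14422 genes at 0.05. FTSH1 rose by 1.15 ± 0.22 on the log2 scale (SE, adjusted p = 3e-04), which is 2.22-fold. FTSH2 rose by 0.57 ± 0.16 (1.48-fold, adjusted p = 0.00669). For the Deg proteases, DEG1A rose by 1.28 ± 0.18 (2.43-fold, adjusted p = 1.9e-05) and DEG1C by 4.47 ± 0.43 (22.1-fold, adjusted p = 3.39e-07). Changes were common in this comparison: 29.7% of tested genes were called higher, and the median change of all tested genes was 0.06 against 1.22 for the 4. DEG1C ranked 131 of 14422 from the highest change, DEG1A 2340, FTSH1 2663 and FTSH2 4739. The 3 libraries at 48 h lay above all 3 at 0 h for 4 of 4 genes and for 32.9% of all tested genes. In bulk RNA a change in every cell and a change in some of the cells cannot be told apart. Scaling by library total (per-million values), which moved the median of all genes to 1.07, gave rises of 2.19 for FTSH1, 1.61 for FTSH2, 2.32 for DEG1A and 5.51 for DEG1C.

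FTSH2, DEG1A and DEG1C rose between 12 and 48 h, and FTSH1, which already stood 0.45 above its 0 h level at 12 h, rose further. Against 12 h, DHC16 at 48 h was higher by 0.70 ± 0.22 for FTSH1 (SE, adjusted p = 0.0137), 0.75 ± 0.16 for FTSH2 (0.000987), 1.24 ± 0.18 for DEG1A (3.01e-05) and 5.16 ± 0.43 for DEG1C (6.84e-08, 35.7-fold). Of all tested genes 23.2% were called higher there, and the 48 h libraries lay above all 12 h libraries for 4 of 4 genes and for 31.1% of all genes. The FTSH1 call was lost without DHC16 library 22 at 48 h (0.56, adjusted p = 0.0702). At 12 h against 0 h in DHC16, 0 of 4 genes passed the limma test, where 56.5% of all tested genes did in either direction. The 12 h changes were 0.45 ± 0.22 for FTSH1 (unadjusted p = 0.0512), -0.19 ± 0.16 for FTSH2, 0.04 ± 0.18 for DEG1A and -0.69 ± 0.43 for DEG1C. FTSH1 was called at 12 h when only the groups compared were fitted (adjusted p = 0.0168) and without A31 library 19 (0.0142) or 22 (0.014) of 48 h, with the same value of 0.45. DEG1C was called lower at 12 h without DHC16 library 4 of 0 h (-1.20, adjusted p = 0.0209). With per-million scaling, whose median over all genes was 0.78, FTSH1 (1.21), FTSH2 (0.57) and DEG1A (0.79) were called higher at 12 h.

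In A31 only DEG1C passed the test at 48 h. It was higher than at 0 h by 1.33 ± 0.48 on the log2 scale (2.51-fold, adjusted p = 0.0484), where 14.4% of all genes were called higher. Both A31 libraries at 48 h, with 441 and 461, lay above all 3 at 0 h, with 137 to 244, as they did for 23.3% of all tested genes. The call was lost in 14 of 17 fits that left out 1 library each, with log2 changes of 1.14 to 1.55. FTSH1 (0.18 ± 0.24), FTSH2 (0.01 ± 0.18) and DEG1A (0.21 ± 0.20) did not pass, with 95% intervals of -0.33 to 0.69, -0.36 to 0.39 and -0.22 to 0.63. The FTSH1 value depended on the library: it was 0.69 without library 19 (adjusted p = 0.012) and -0.33 without library 22 (0.432). Between the libraries, 22 over 19, FTSH1 differed 2.02-fold, FTSH2 1.52-fold, DEG1A 1.16-fold and DEG1C 1.04-fold. At 12 h against 0 h in A31, 0 of 4 genes passed the limma test, against 59.9% of all tested genes. The A31 changes at 12 h were 0.04 ± 0.22 for FTSH1, -0.29 ± 0.16 for FTSH2 (the smallest unadjusted p, 0.0882), -0.07 ± 0.18 for DEG1A and -0.31 ± 0.43 for DEG1C. FTSH2 was called lower there with quantile scaling (-0.52, adjusted p = 0.00479) and, at -0.29, without A31 library 19 (0.0475) or 22 (0.0471) of 48 h.

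The change at 48 h was larger in DHC16 than in A31 for DEG1A, DEG1C and FTSH1, as the difference of the changes, DHC16 minus A31. This difference was 3.14 ± 0.64 for DEG1C (SE, adjusted p = 0.00242), 1.07 ± 0.27 for DEG1A (0.0103) and 0.97 ± 0.32 for FTSH1 (0.0472). Of all tested genes 9.26% were called higher in this comparison. For FTSH2 the difference of 0.55 ± 0.24 did not pass (adjusted p = 0.125), with an interval of 0.05 to 1.06. The DEG1A and DEG1C calls held under all 26 alternative settings. The FTSH1 call was lost in 15 of 17 fits that left out 1 library, with edgeR (0.92, adjusted p = 0.0626) and with DESeq2 (0.89, 0.0503), and its value was 0.46 without A31 library 19 and 1.48 without A31 library 22. Without A31 library 22 the FTSH2 difference was 0.85 (adjusted p = 0.00572), and without library 19 it was 0.25. It was also called with quantile scaling (1.3, adjusted p = 0.000526) and with per-million scaling (1.82, 0.000144). At 12 h the differences were 0.41 ± 0.31 for FTSH1, 0.10 ± 0.23 for FTSH2, 0.11 ± 0.25 for DEG1A and -0.38 ± 0.61 for DEG1C, and 0 of 4 passed the limma test (smallest unadjusted p = 0.198), where 0.25% of all genes did.

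**Figure D2:**
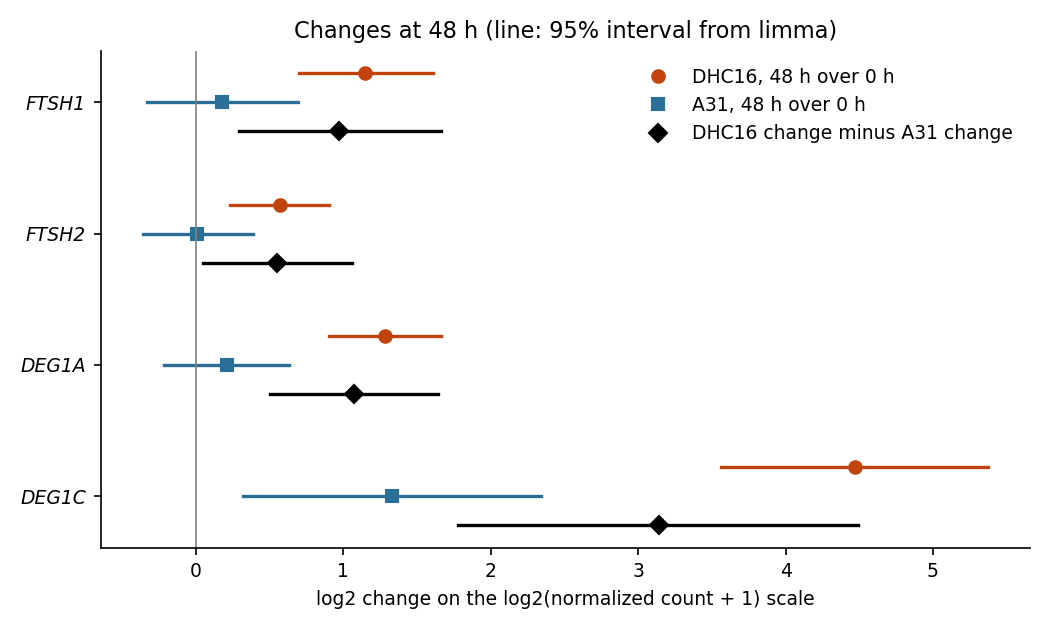
Changes at 48 h over 0 h of the 4 genes, on the horizontal axis as log2 changes of normalized count + 1 with 95% intervals from limma, in DHC16, in A31, and as the difference, DHC16 minus A31. The DHC16 changes run from 0.57 for FTSH2 to 4.47 for DEG1C, and the A31 intervals of FTSH1, FTSH2 and DEG1A include 0.

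Set side by side at 48 h, DHC16 exceeded A31 for DEG1C by 4.56 ± 0.48 (SE, 23.6-fold, adjusted p = 2e-06), for DEG1A by 0.96 ± 0.20 (1.94-fold, 0.00158) and for FTSH2 by 0.67 ± 0.18 (1.59-fold, 0.00841). Of all tested genes 16% were called higher, and DEG1C ranked 61. For FTSH1 the difference was 0.55 ± 0.24 (adjusted p = 0.0917), or 0.05 without A31 library 19. It was called without A31 library 22 (1.06, adjusted p = 0.000748), with quantile scaling (1.00, 0.00192) and with per-million scaling (1.10, 0.00522). The FTSH2 call was lost without A31 library 19 (0.37, adjusted p = 0.103). When only these groups were fitted, DEG1C alone of the 4 was called. The groups did not overlap for FTSH2, DEG1A and DEG1C, which was so for 23% of all tested genes.

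At 0 h DEG1C was the one gene of the 4 called higher in DHC16 than in A31. The difference was 1.42 ± 0.43 on the log2 scale (SE, 2.68-fold, adjusted p = 0.0455), where 4.72% of all genes were called higher. The ranges overlapped, since DHC16 library 4 with 237 lay below A31 library 1 with 244. Without DHC16 library 1 the difference was 0.76 (adjusted p = 0.181), and the call was lost in 13 of 17 fits that left out 1 library. FTSH1 had a difference of -0.42 ± 0.22 that did not pass (adjusted p = 0.247), although all 3 DHC16 libraries, at 1360.5 to 1887, lay below all 3 A31 libraries, at 2084 to 2267, as was so for 16.4% of all tested genes. With quantile scaling FTSH1 was called lower in DHC16 at 0 h (-0.71, adjusted p = 0.0417) and DEG1C was not called (1.37, 0.0788). FTSH2 differed by 0.12 ± 0.16 and DEG1A by -0.11 ± 0.18. With per-million scaling, whose median over all genes was -0.71, DEG1C was not called (0.71), and FTSH1 (-1.13), FTSH2 (-0.60) and DEG1A (-0.83) were called lower. At 12 h, 0 of 4 genes passed the limma test between the strains, against 3.45% of all genes. DEG1C differed there by 1.04 ± 0.43 (unadjusted p = 0.0262, adjusted p = 0.198), with the 3 DHC16 libraries at 222 to 514 and the A31 libraries at 129 to 153. The DHC16 libraries lay above all A31 libraries at 12 h for FTSH2 and DEG1C, as for 17.1% of all tested genes, and at 0 h for 0 of 4, against 16.8%.

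Ratios of genes within a library do not depend on its scaling factor. Gene length is not corrected, so a ratio is compared between libraries and its size is not read as a balance of transcripts. The FTSH1 to FTSH2 ratio was 0.715, 0.556 and 0.680 in DHC16 at 0 h, 1.09, 0.989 and 0.951 at 12 h, and 0.925, 1.06 and 0.934 at 48 h. In A31 it was 0.870, 0.924 and 1.03 at 0 h, 1.36, 0.955 and 1.28 at 12 h, and 0.913 and 1.22 at 48 h. All 3 DHC16 libraries at 0 h lay below each of the other 14. In DHC16 the log2 ratio was 0.59 higher at 48 h than at 0 h (1.5-fold, exact two-sided permutation p = 0.1, the smallest that 3 against 3 libraries allow). Between DHC16 and A31 at 48 h it differed by -0.12 (exact permutation p = 0.8).

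The DEG1C to DEG1A ratio was 4.49, 0.879 and 1.94 in DHC16 at 0 h, 0.970, 2.08 and 0.821 at 12 h, and 17.4, 18.2 and 18.4 at 48 h. In A31 it was 0.855, 0.613 and 0.594 at 0 h, 0.598, 0.607 and 0.520 at 12 h, and 1.56 and 1.41 at 48 h. The 48 h values in DHC16 lay close together and above all others. On the log2 scale the ratio was 3.19 higher in DHC16 at 48 h than at 0 h (9.12-fold, exact two-sided permutation p = 0.1). It was 3.6 higher in DHC16 than in A31 at 48 h (12.2-fold, exact permutation p = 0.2, the smallest that 3 against 2 libraries gave). Both A31 libraries at 48 h, which differed from each other in FTSH1, also had a higher DEG1C to DEG1A ratio than every A31 library of 0 and 12 h.

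**Figure D3:**
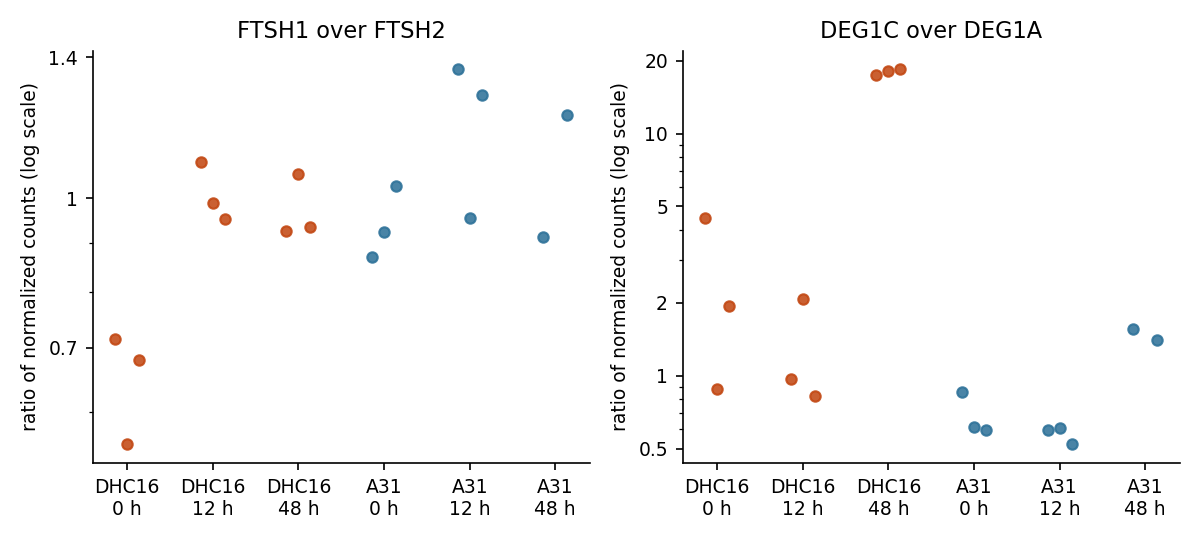
Ratio of normalized counts of FTSH1 over FTSH2 (left) and of DEG1C over DEG1A (right) in each library, on logarithmic axes, by strain and time. DHC16 at 0 h has the 3 lowest FTSH1 to FTSH2 ratios, 0.556 to 0.715, and DHC16 at 48 h has the 3 highest DEG1C to DEG1A ratios, 17.4 to 18.4.

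Single libraries set DEG1C apart within its groups. In DHC16 library 1 at 0 h it was 1.99 log2 units above the mean of libraries 4 and 7, rank 68 of 14422 genes, and 3.66% of genes were more than 1 unit higher in that library. FTSH1 (0.07), FTSH2 (-0.15) and DEG1A (0.21) showed no such gap there. Of 7 listed chloroplast chaperones and VIPP proteins, 6 were higher in the same library, from 0.42 for CLPB3, which dissolves protein aggregates, to 1.08 for CGE1a, and HSP70B was lower (-1.07). The ranks of the 6 ran from 426 for CGE1a to 2728 for CLPB3, and the median over all genes in that library was 0.03. Of 6 listed chaperones outside the chloroplast, HSP70C (-2.22), HSP70E (-1.59), CPN60C (-1.52) and CPN10 (-1.07) were lower there, with HSP22A at 0.04 and HSP70G at 0.22. In DHC16 library 13 at 12 h DEG1C was 1.18 above libraries 10 and 16, rank 71, where 0.971% of genes exceeded 1 unit. The 7 chloroplast chaperones and VIPP proteins ran there from -0.05 for HSP70B to 1.06 for HSP22F, a chloroplast small heat shock protein. The part of library differences in the DEG1C values was not tested beyond the fits without each library.

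Among the named genes, those whose levels followed DEG1C most closely over the 17 libraries were CLPB3 (Pearson r = 0.976), PWR1 (0.967) and HSP22E, one of the small heat shock proteins in chloroplasts (0.956). CLPB3 averaged 659, 582 and 2716 normalized counts in DHC16 at 0, 12 and 48 h and 584, 476 and 762 in A31. HSP22E averaged 209, 424 and 26164 in DHC16 and 94.6, 68.6 and 163 in A31. For FTSH2 the closest were CPLD50, a conserved protein (0.948), CLPB3 (0.904) and MSC1, a mechanosensitive channel (0.899). For DEG1A they were CPLD13, a conserved protein (0.923), HIS3, of histidine synthesis (0.916), and BCS1, which helps assemble mitochondrial complex III (0.915). For FTSH1 they were VPS4, an ATPase of vacuolar protein transport (0.912), GPD1, glycerol-3-phosphate dehydrogenase (0.897), and MFT10, of the major facilitator family (0.888).

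These correlations describe 17 libraries that share strains, times and scaling, and the high values of DHC16 at 48 h weigh in each. Without those 3 libraries, over 14, CLPB3 was still the closest named gene to DEG1C (0.818), CPLD50 to FTSH2 (0.823) and VPS4 to FTSH1 (0.880), whereas for DEG1A it was PHX1, a prolyl hydroxylase (0.758). Among the 4 proteases r was 0.65 to 0.89 over 17 libraries and -0.10 to 0.48 over 14. DEG1C and FTSH2 had the 0.48, and FTSH1 and FTSH2 had 0.13.

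Other genes of protein quality control were taken from lists of symbols. Of 7 chloroplast chaperones and VIPP proteins, 5 rose and 0 fell in DHC16 at 48 h against 0 h (median 2.05), with HSP22F at 7.43 ± 0.32 and CGE1a, a nucleotide exchange factor of chloroplast HSP70, at 0.01 ± 0.25 (not called). Among all tested genes 29.7% were called higher and 25.3% lower in this comparison. CLPB3 rose by 2.05 ± 0.18 and HSP22E by 6.98 ± 0.23. DEG1C thus stood between CLPB3 and the HSP22 genes in size, and DEG1A and both FtsH genes below CLPB3. In A31 CLPB3 had 0.38 ± 0.20 (adjusted p = 0.16), and HSP22E and HSP22F rose by 0.75 ± 0.26 and 1.04 ± 0.36. As the difference between the strains' changes, 5 of the 7 were higher in DHC16 and 0 lower, against 9.26% and 8.66% of all genes.

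The listed photosystem II genes, for subunits and for factors of assembly and repair, moved the other way in DHC16. The gene for D1 is not among them. Of 7 genes, 0 rose and 6 fell at 48 h (median -3.02), with PSBO, a lumenal subunit of the oxygen-evolving complex, at -3.66 ± 0.22 and PSB28, an assembly factor, at 0.22 ± 0.20 (not called). With per-million scaling, whose median over all tested genes was 1.07, 4 of the 7 fell and 1 rose (median -1.98), and the value of TEF30 changed sign. Of 6 chaperones outside the chloroplast, 6 rose and 0 fell (median 3.24), from HSP70G at 0.75 ± 0.22 to HSP22A at 5.70 ± 1.01. At 12 h 4 of the 6 had already risen in DHC16 (median 2.51) and in A31 (median 2.62), and DHC16 at 48 h against 12 h had a median of 0.02. Among all tested genes 56.5% in DHC16 and 59.9% in A31 were called at 12 h, in either direction. As a difference between the strains' changes at 48 h, 1 of those 6 was called, HSP70G. The A31 libraries of 48 h lay far apart in this list, with CPN60C at 6.27 in library 19 and 1393 in library 22. Of 13 other named proteases and peptidases 8 rose and 1 fell (median 0.69), against 29.7% of all genes called higher and 25.3% called lower. With per-million scaling 11 rose and 0 fell (median 1.72), but the median over all tested genes was then 1.07. ASP3, a pepsin-type protease of the secretory pathway, had 4.44 ± 0.30 and MMP13, a gametolysin-like metalloprotease, -1.10 ± 0.22. EGY1, a metalloprotease of chloroplast membranes picked here after its values were seen, rose by 0.64 ± 0.19 in DHC16 (adjusted p = 0.00779), and its change differed from that in A31 by 0.24 ± 0.28 (0.604). DEG1C's rise of 4.47 and ASP3's of 4.44 were similar in DHC16, but ASP3 also rose by 2.42 ± 0.34 in A31.

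**Figure D4:**
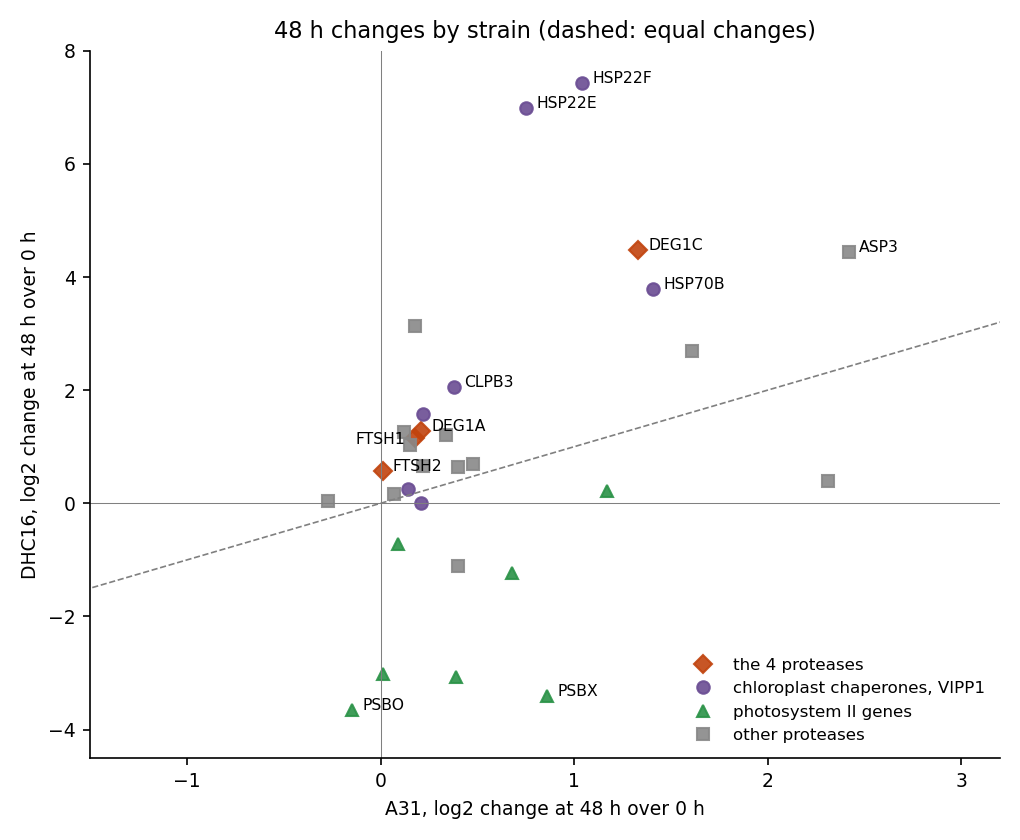
Log2 change at 48 h over 0 h in A31 (horizontal) and in DHC16 (vertical) for the 4 proteases, 7 chloroplast chaperones and VIPP proteins, 7 photosystem II genes and 13 other proteases. Each point is 1 gene and the dashed line marks equal changes. DEG1C lies at 1.33 in A31 and 4.47 in DHC16, near HSP70B, and photosystem II genes such as PSBO lie below the line.

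In A31 given rapamycin, all 4 genes are in the authors' deposited tables at 2 and at 8 h, which hold only genes past a log2 change of 1, so their presence was fixed by the choice of the genes. The scale of the deposited levels is not stated. FTSH1 had mean levels of 76.76 at 0 h, 173.1 at 2 h and 211.2 at 8 h in the authors' deposited table, and FTSH2 had 76.61, 194.0 and 234.2. DEG1A had 3.694, 14.75 and 15.55 there, and DEG1C 4.525, 65.59 and 186.1. FTSH1, FTSH2 and DEG1A had most of their rise by 2 h, while DEG1C was higher again at 8 h.

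The moderated log2 changes over 0 h in the authors' deposited table were 1.27 at 2 h and 1.35 at 8 h for FTSH1, 1.48 and 1.49 for FTSH2, 1.76 and 1.61 for DEG1A, and 3.54 and 4.73 for DEG1C. DEG1C ranked 19 of 890 listed rises at 2 h and 7 of 688 at 8 h in the authors' deposited table. The level at 8 h over that at 2 h was 1.22-fold for FTSH1, 1.21 for FTSH2, 1.05 for DEG1A and 2.84 for DEG1C, from the authors' deposited means. For DEG1A the moderated change was smaller at 8 h than at 2 h although its level was higher, and for FTSH1 and FTSH2 the moderated changes were nearly equal. The level ratios near 1 may therefore depend on the unstated scale, which was not tested. Both comparisons share the 0 h samples, and no library values of this experiment were analysed here, so no error is given.

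**Figure D5:**
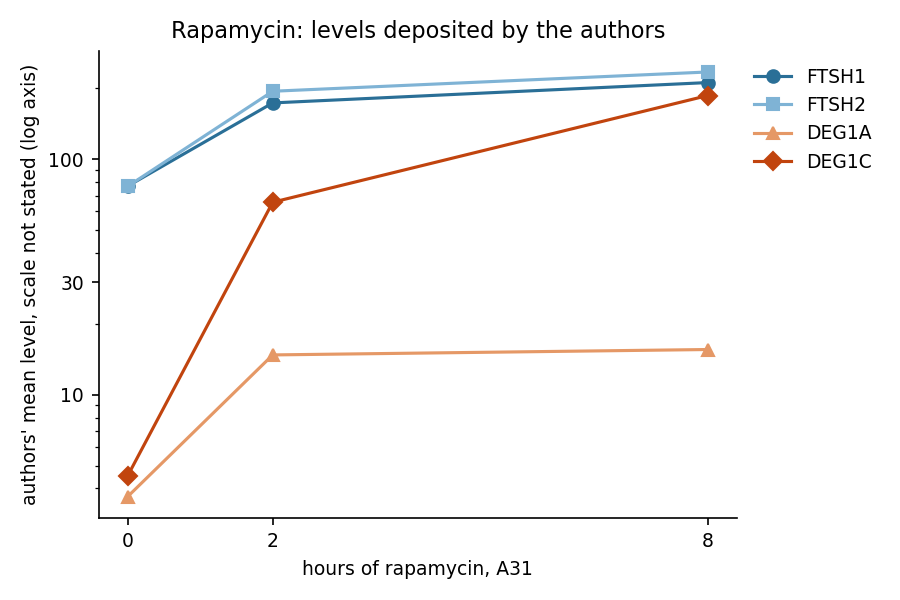
Mean levels of the 4 genes in A31 at 0, 2 and 8 h of rapamycin as deposited by the authors, on a logarithmic vertical axis whose unit is not stated. DEG1C climbs from 4.525 at 0 h through 65.59 at 2 h to 186.1 at 8 h, while the other 3 genes differ 1.05- to 1.22-fold between 2 and 8 h.

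The course of each ratio under rapamycin can be set beside the vitamin experiment, although its size cannot, since the deposited levels may be scaled by gene length. In the authors' deposited means FTSH1 over FTSH2 was 1.00 at 0 h, 0.892 at 2 h and 0.902 at 8 h, and DEG1C over DEG1A was 1.22, 4.45 and 12.0. Listed photosystem II genes differed in direction between the experiments: 4 of 4 listed at 2 h and 6 of 6 at 8 h rose in the authors' deposited table, against 45.9% and 40.4% of all genes listed there, with PSBO at 2042 at 8 h and 633.4 at 0 h, against the falls in DHC16 at 48 h. The photosystem II symbols come from these tables, so they had passed the authors' thresholds there. CLPB3 and HSP22E rose in that table as well, to 47.19 and 284.8 at 8 h, against 12.97 and 5.914 at 0 h.

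Genes beside the 4 on the chromosomes moved in both directions. Within 2 genes on either side in the RefSeq order, 14 of 16 neighbours were tested, and 3 rose and 5 fell in DHC16 at 48 h against 0 h, with log2 changes of -1.77 to 2.56. Those counts stand against 29.7% of all tested genes called higher and 25.3% called lower. The 2.56 belonged to a direct neighbour of DEG1C, Cre12.g498550.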

How the data were processed

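RNA-seq libraries were made from total RNA of DHC16 and A31 with the TruSeq protocol, per the labels. The submitters' processing notes name edgeR 3.0.8, HTSeq 0.5.3p9, TopHat 1.3.1 and CASAVA 1.8.2 without roles. For the genome build, annotation, strand setting and normalization, the entry is: not given in the sources used here. The deposited table holds normalized counts, a signal that the authors made from reads per gene with 1 factor per library. Every value was a whole multiple (within 0.01) of the smallest in its column, which gave back the reads (100% of values). Not analysed here were the rapamycin libraries, library 25 of A31 at 48 h and the times of 31 and 43 h. For rapamycin the authors deposited mean levels (a signal of unstated scale), moderated log2 changes and p-values, copied with no test added.

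Genes averaging 1 or more on the per-million scale were tested (14422 of 17114) with limma 3.58.1 (limma-trend, R 4.3.3) on log2(normalized count + 1). Each strain and time had 1 mean, and all 17 libraries shared the spread. Fold changes on this scale understate changes of low genes. Adjustment was by Benjamini-Hochberg at 0.05 over all tested genes, separately for each of 10 comparisons. Ratios were tested by exact two-sided permutation (scipy 1.17.1). The fits were tested on simulated data with 200 changed genes. Alternatives were other scalings, pseudocounts of 0.5 and 5, no filter, only the groups compared, edgeR 4.0.16 and DESeq2 1.42.0 on recovered reads, a replicate block, and each library left out.

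The 4 genes and the lists were chosen with earlier results of these data known. For each gene the 3 named genes with the highest correlation were named, and of each list the largest and smallest change in DHC16 at 48 h. Gene names come from the rapamycin tables, so every named gene had passed the authors' thresholds there. The list of other proteases was drawn up from the tables' definition lines. RefSeq (Chlamydomonas_reinhardtii_v5.5) was used only for gene order. Deviations of same-numbered libraries from their group means were correlated between the strains. At 0 h r was 0.222, 0.211 and 0.151 for the library numbers 1, 4 and 7, and at 12 and 48 h it was -0.084 to 0.178. Libraries of different numbers were not compared in this way, so whether the numbers pair the strains was not tested.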

Additional observations from a re-analysis of the deposited data

Results flagged for a closer look

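The change from 0 to 48 h differed between the strains for 3 of the 4 genes by the limma test of the difference itself, where 9.26% of all tested genes were called higher. The DHC16 change minus the A31 change was 3.14 ± 0.64 for DEG1C (SE, adjusted p = 0.00242), 1.07 ± 0.27 for DEG1A (0.0103) and 0.97 ± 0.32 for FTSH1 (0.0472), in log2 units. The values behind them were 4.47 in DHC16 and 1.33 in A31 for DEG1C, 1.28 and 0.21 for DEG1A, and 1.15 and 0.18 for FTSH1. All 3 DHC16 libraries at 48 h lay above all 3 at 0 h for each gene, as for 32.9% of all tested genes. The FTSH1 difference turned on the A31 libraries at 48 h, being 0.46 without library 19 and 1.48 without library 22. Its call was lost in 15 of 17 fits that left out 1 library, without the filter on low genes (adjusted p = 0.0513), with only the groups compared (0.116), with edgeR (0.0626) and with DESeq2 (0.0503). The part of the gap between the A31 libraries in the result was not tested further. The DEG1C difference was 2.63 to 3.80 and the DEG1A difference 0.93 to 1.19 over the fits that left out 1 library each.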

How the results depend on the processing

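The 4 rises in DHC16 at 48 h against 0 h were called under each of the 25 alternatives. So were the DEG1C differences between the strains at 48 h and the DEG1A and DEG1C differences of the changes, under 26. Counts of the 4 genes called moved in other comparisons. With per-million scaling 3 were called in DHC16 at 12 h against 0 h, 3 between the strains at 0 h and 0 in A31 at 48 h. The median change of all tested genes in these comparisons was then 0.78, -0.71 and -0.19, in that order. Of 14422 tested genes, 7445 were called between the strains at 0 h with that scaling. With only the groups compared, 1 of the 4 was called in DHC16 at 12 h, 1 between the strains at 48 h, 1 at 12 h and 0 at 0 h, and 0 in A31 at 48 h. Of the 14422 tested genes, that setting called 1631 between the strains at 48 h, 2488 at 12 h and 297 in A31 at 48 h. Over all alternatives, 7070 to 9215 tested genes were called in DHC16 at 12 h against 0 h and 7615 to 9410 in A31. Without the filter there were 0 in A31 at 48 h and 0 between the strains at 0 h, and with quantile scaling 1 in A31 at 12 h. Leaving out 1 library gave 0 to 1 called in A31 at 48 h, A31 at 12 h, DHC16 at 12 h and between the strains at 0 h. The cause was not tested.

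For the 4 genes, the values that changed sign were uncalled under the reported settings. With per-million scaling FTSH2 was called in the opposite direction by limma. This was so in DHC16 at 12 h (0.57, adjusted p = 0.0234) and between the strains at 0 h (-0.60, 0.0247). Per-million scaling gave 0.57 for FTSH2 and 0.06 for DEG1C in DHC16 at 12 h against 0 h, and -0.04 for FTSH1, -0.21 for FTSH2 and -0.02 for DEG1A in A31 at 48 h. In A31 at 12 h it gave 0.04 for FTSH2, 0.26 for DEG1A and 0.02 for DEG1C. Between the strains it gave -0.60 for FTSH2 at 0 h, -0.07 for FTSH2 at 12 h and 0.04 for the DEG1C difference of changes at 12 h. Quantile scaling gave -0.14 for FTSH1 and -0.27 for FTSH2 in A31 at 48 h, -0.21 for FTSH1 in A31 at 12 h and -0.19 for FTSH2 between the strains at 0 h. With edgeR, FTSH1 had -0.01 in A31 at 12 h and 0.02 between the strains at 12 h.

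Over the fits without 1 library, signs turned within -0.19 to 0.05 for DEG1A in A31 and -0.10 to 0.12 in DHC16 at 12 h, -0.23 to 0.03 for DEG1A between the strains at 0 h, and -0.03 to 0.24 for DEG1A and -0.89 to 0.28 for DEG1C as differences of changes at 12 h. They also turned within -0.02 to 0.16 for FTSH1 in A31 at 12 h, -0.33 to 0.69 for FTSH1 and -0.29 to 0.31 for FTSH2 in A31 at 48 h, and -0.12 to 0.05 for FTSH1 between the strains at 12 h. The log2 ratio of FTSH1 over FTSH2 between the strains at 48 h ran from -0.33 to 0.09, and that of DEG1C over DEG1A from 3.53 to 3.68.

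Counts over all genes moved by more than 1.5 times under several settings. With only the groups compared, 297 were called in A31 at 48 h (3892 as reported), 1671 as differences of changes at 48 h (2584) and 502 at 12 h (36), 1631 between the strains at 48 h (4545) and 2488 at 12 h (498). With per-million scaling there were 9580 and 335 differences of changes at 48 and 12 h, and 1055 and 7445 between the strains at 12 and 0 h (498 and 1353). Quantile scaling gave 769 at 0 h, and DESeq2 gave 179 differences of changes at 12 h and 1008 genes between the strains at 12 h. Over the fits without 1 library, the counts ran from 953 (without A31 library 22) to 7205 (without A31 library 19) in A31 at 48 h, from 535 (without A31 library 7) to 2568 (without A31 library 19) between the strains at 0 h, and from 202 (without DHC16 library 13) to 1429 (without A31 library 22) at 12 h. Differences of changes at 12 h ran from 3 (without DHC16 library 16) to 426 (without A31 library 19 or 22), and those at 48 h reached 4188 without A31 library 22.

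With the replicate block, the DEG1C difference of changes at 48 h was 3.16 (adjusted p = 0.00246) and that between the strains at 0 h 1.42 (0.023). The replicate block changed no call of the 4 genes. It gave 11 differences of changes at 12 h over all genes, against 36 without it. Same-numbered libraries had r of 0.151 to 0.222 at 0 h and of -0.084 to 0.178 at 12 and 48 h. Whether the numbers pair the strains was not tested. The 4 genes had at least 123 reads in each library. The 2 A31 libraries at 48 h limit each comparison that uses them.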
